A study of Homo sapiens with 15 samples.

Results

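The genes that make sterols and fatty acids, with the factors that switch them on, were followed in a pair of human ovarian carcinoma lines and in one of the lines after epigenetic drugs. The set was given as 31 gene symbols. Where several probe sets with 1 symbol read a gene, the one brightest on average across 15 arrays stood for it, and 28 of the 31 could be represented in this way among 19775 genes in all. FDFT1, CYP51A1 and FADS1 were not analysed here. The 28 genes comprised 7 of the mevalonate stage (ACAT2, HMGCS1, MVK, PMVK, MVD, IDI1 and FDPS), 9 of the later sterol stage (SQLE, LSS, TM7SF2, MSMO1, NSDHL, HSD17B7, EBP, SC5D and DHCR7), 6 of fatty acid synthesis (ACLY, ACACA, FASN, SCD, ELOVL6 and FADS2) and 6 regulators or sterol carriers (SREBF1, SREBF2, SCAP, INSIG1, INSIG2 and STARD4).

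There were 5 groups of 3 arrays, which the design text describes as biological triplicates. A2780 is a cisplatin-sensitive ovarian cancer line, and CP70 (A2780/cp70) is a cisplatin-resistant line derived from it. All cells were grown in medium with 10% fetal bovine serum, which itself supplies lipid. CP70 was profiled untreated, after 0.1 µM decitabine for 48 h, after 0.1 µM PXD101 for 48 h, and after both drugs, in which 0.1 µM decitabine was given for 48 h and 0.1 µM PXD101 for 24 h. Treated cells were harvested 96 h after drug removal. Decitabine is a cytidine analogue that traps DNA methyltransferases, and PXD101 (belinostat) is a histone deacetylase inhibitor. PXD101 exposure was therefore shorter in the combination than alone, and A2780 received no drug. Each line is a single established line, so differences between A2780 and CP70 are differences between these cultures.

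Cells build cholesterol from acetyl-CoA through the mevalonate pathway, and fatty acids from the same acetyl-CoA through malonyl-CoA. The transcription factors SREBP2 (gene SREBF2) and SREBP1 (gene SREBF1) activate most of these genes. They are held in the endoplasmic reticulum with their escort SCAP by the INSIG proteins when sterols are plentiful, and move on to be cleaved and reach the nucleus when sterols are scarce. SREBF2 and INSIG1 are themselves targets of this pathway, so their messenger RNAs are part of its feedback.

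The sequences before the transcription start are shown for the genes on which the results below turn: the regulators SREBF2 and INSIG1, the carrier STARD4, and the enzymes TM7SF2, LSS and FDPS. Each is the 250 bases upstream of a RefSeq start, read 5′ to 3′ on the gene's strand, in build GRCh38.p14. Capitals mark the CCAAT box on either strand (CCAAT or ATTGG) and matches to the sterol regulatory element letters TCACNCCAC. The regions are chr22:41832855-41833104 (plus strand) for SREBF2, chr7:155297628-155297877 (plus) for INSIG1, chr5:111512536-111512785 (minus) for STARD4, chr11:65111622-65111871 (plus) for TM7SF2, chr21:46228775-46229024 (minus) for LSS and chr1:155308616-155308865 (plus) for FDPS.
SREBF2: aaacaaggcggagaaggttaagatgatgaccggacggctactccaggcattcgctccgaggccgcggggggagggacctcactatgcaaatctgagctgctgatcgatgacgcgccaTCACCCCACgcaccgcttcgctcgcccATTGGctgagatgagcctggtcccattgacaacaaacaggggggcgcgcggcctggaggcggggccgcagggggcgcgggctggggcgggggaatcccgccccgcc
INSIG1: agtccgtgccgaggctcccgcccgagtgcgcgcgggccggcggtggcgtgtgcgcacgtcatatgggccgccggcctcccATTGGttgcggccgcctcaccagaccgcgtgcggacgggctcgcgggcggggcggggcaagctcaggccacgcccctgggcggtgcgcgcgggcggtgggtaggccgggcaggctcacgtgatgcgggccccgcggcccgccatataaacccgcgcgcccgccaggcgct
STARD4: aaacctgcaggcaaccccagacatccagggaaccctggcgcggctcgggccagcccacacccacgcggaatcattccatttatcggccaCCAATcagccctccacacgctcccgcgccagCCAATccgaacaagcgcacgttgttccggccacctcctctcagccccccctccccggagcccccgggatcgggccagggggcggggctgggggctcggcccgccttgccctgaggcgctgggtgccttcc
TM7SF2: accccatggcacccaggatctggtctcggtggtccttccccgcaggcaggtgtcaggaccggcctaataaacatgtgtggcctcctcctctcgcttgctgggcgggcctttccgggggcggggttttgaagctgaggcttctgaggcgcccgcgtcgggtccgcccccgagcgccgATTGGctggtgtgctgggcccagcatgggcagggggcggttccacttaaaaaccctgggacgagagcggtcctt
LSS: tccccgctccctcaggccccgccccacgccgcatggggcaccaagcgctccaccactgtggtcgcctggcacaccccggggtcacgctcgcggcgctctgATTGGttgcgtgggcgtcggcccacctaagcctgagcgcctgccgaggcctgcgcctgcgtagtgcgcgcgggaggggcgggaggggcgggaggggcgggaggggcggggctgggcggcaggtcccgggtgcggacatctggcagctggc
FDPS: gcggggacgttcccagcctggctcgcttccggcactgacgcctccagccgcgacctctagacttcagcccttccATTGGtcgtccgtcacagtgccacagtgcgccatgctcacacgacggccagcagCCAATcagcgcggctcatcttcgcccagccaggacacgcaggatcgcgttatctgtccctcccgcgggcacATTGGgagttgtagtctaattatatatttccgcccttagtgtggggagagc

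The sterol element letters were present in SREBF2, where the match begins 133 bases before the start and a CCAAT box begins 106 bases before it. FDPS held 3 CCAAT boxes, which begin 176, 122 and 51 bases before its start, and STARD4 held 2, at 161 and 130 bases. INSIG1, LSS and TM7SF2 each held 1. RefSeq promoter windows of 300 bases (250 before and 50 after a start) were at hand for 25 of the 28 genes, with 35 starts. CCAAT was found on either strand in 24 of these 35 windows (68.6%), against 34.6% of 35116 windows of all genes and 34.5% of those of the genes tested here. The GC box letters GGGCGG were in 31 of 35 (88.6%), against 45.0% of all windows and 56.7% of those of the tested genes. TCACNCCAC was in 1 of 35 (2.86%), against 1.13% and 1.07%. None of these motifs overlapped in the 6 sequences printed. A match describes the letters in the window and is not evidence that a factor binds there.

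Values are on the log2 scale as deposited, so a difference of 1 is a doubling of the signal, and levels are compared between samples for 1 gene at a time. All 28 genes had a mean over the median of all gene values. Array medians over all genes lay between 6.16 and 6.40. Arrays give no read depth, and their number limits the precision. In a list of 8 genes for epithelium and ovarian carcinoma, PAX8, EPCAM, KRT8, KRT18 and VIM reached values over the all-gene median. WT1, MUC16 and CDH1 of that list stayed below the lower quartile (4.34) on every array. VIM (vimentin) is a mesenchymal filament gene and not an epithelial marker, and it had the highest value of the list. The 6 adipocyte and liver markers (ADIPOQ, PLIN1, LEP, ALB, APOA1 and CYP7A1) stayed below the median on every array. Summed over the 5 leukocyte markers analysed of 6, the log2 values ran from 22.96 to 24.65 in A2780, from 24.16 to 24.81 in untreated CP70, from 23.49 to 24.30 with PXD101, from 27.04 to 27.14 with decitabine and from 26.80 to 26.98 with both drugs. TYROBP and LAPTM5 accounted for most of this, and PTPRC stayed below the lower quartile on every array. The 8 genes of the epithelium and carcinoma list, VIM included, summed to 52.09 to 54.25 in A2780 and 55.81 to 57.05 in untreated CP70. Their sums were 54.81 to 55.31 with PXD101, 58.96 to 59.72 with decitabine and 59.37 to 59.88 with both drugs. The sums of the 7 fibroblast and endothelial markers lay between 44.21 and 46.04 in every group. Single markers of that list differed between the lines in opposite directions: from A2780 to untreated CP70 the mean of DCN went from 6.54 to 9.98, that of COL1A2 from 11.10 to 8.62 and that of PDGFRA from 6.74 to 5.17. The part of these markers in the results was not tested.

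One untreated CP70 array stood apart from its group, and it enters every comparison with untreated CP70. Across all 19775 genes, CP70 replicate 2 correlated at 0.9832 and 0.9856 with the other untreated CP70 arrays and at 0.9951 to 0.9967 with the 3 PXD101 arrays. Its value differed by more than 0.5 from the mean of CP70 replicates 1 and 3 for 13 of the 28 lipid genes (46.4%), against 19.2% of all genes. It lay above both other CP70 arrays for 19 of the 28 and below both for 9, counts for which no share of all genes is given. For all 28 it was nearer to the mean of the PXD101 arrays than to the mean of CP70 replicates 1 and 3, against 67.9% of all genes. Whether this array carries the right label was not tested, and a wrong label and a culture that differed from its group mates cannot be told apart from these values. CP70 replicate 2 below means the array labelled so. It bears on every mean of untreated CP70, on the difference from A2780 and on every drug change. Results are therefore also given without it, and with it as the only untreated array, where that ends a call. In the fits with a single untreated array the other groups supply the spread and that array is assumed to vary like them, so a call can also be lost there because fewer arrays were used. No share of all genes is given for limma fits other than the main one. Counts of calls in those fits are therefore not set against all genes.

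The enzymes with the widest spread in untreated CP70 were FASN (fatty acid synthase), ACAT2 (the thiolase that joins acetyl-CoA units), ACLY (ATP citrate lyase, the source of cytosolic acetyl-CoA), FDPS (farnesyl diphosphate synthase) and EBP (a sterol isomerase). FASN read 7.67, 9.08 and 7.61 in CP70 replicates 1, 2 and 3. ACAT2 read 8.85, 10.28 and 9.02, and EBP read 9.14, 10.14 and 8.99. In each of them replicate 2 was high and replicates 1 and 3 were close together. Replicate 2 exceeded the mean of the other CP70 arrays by 1.44 for FASN, 1.35 for ACAT2, 1.20 for ACLY, 1.19 for FDPS and 1.07 for EBP. The sterol carrier STARD4, the desaturase SC5D and the regulators INSIG1 and SREBF2 went the other way, with replicate 2 below the mean of the others by 0.64, 0.55, 0.57 and 0.50 in log2 units. Replicate 2 lay within 0.25 of the PXD101 mean for 23 of the 28 genes (82.1%, against 85.1% of all genes).

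**Figure D1:**
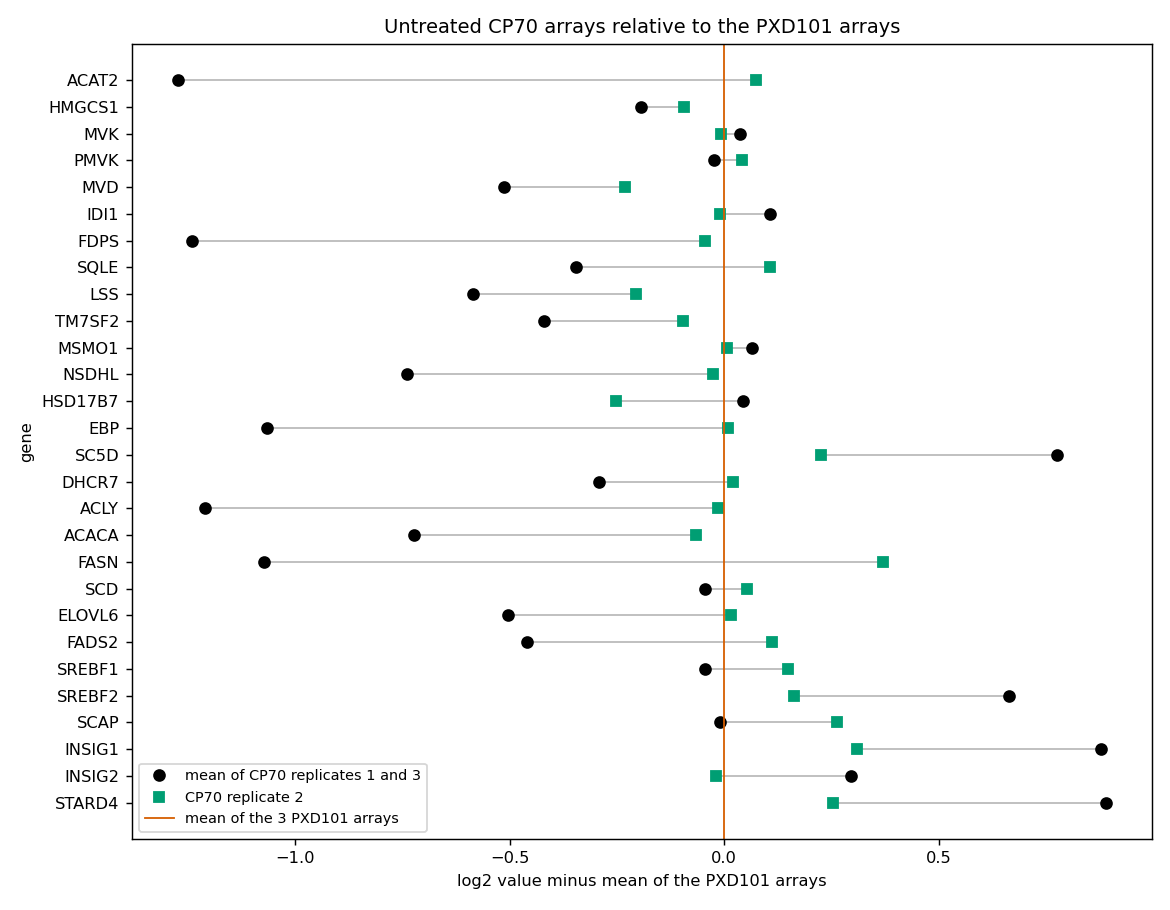
Log2 value minus the mean of the 3 PXD101 arrays (horizontal axis) for each of the 28 genes (vertical axis), for the mean of untreated CP70 replicates 1 and 3 (black circles) and for untreated CP70 replicate 2 (green squares). The squares lie nearer to the PXD101 line than to the circles in all 28 genes, and FASN, ACAT2, ACLY, FDPS and EBP have gaps between circle and square of 1.07 to 1.44.

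Other array features varied along with this spread. The median of 6 fatty acid genes was 9.11, 9.64 and 8.99 in CP70 replicates 1, 2 and 3. The median of 20 genes of the integrated stress response (ATF4, DDIT3, ASNS and others) was 11.89, 10.28 and 11.78 in the same arrays. It ran from 9.51 to 9.53 in A2780, from 10.59 to 11.18 with decitabine, from 9.28 to 9.99 with PXD101 and from 10.15 to 11.26 with both drugs. Within untreated CP70, the 2 arrays with high stress medians had the low fatty acid medians. The 3′ minus 5′ difference of the actin control probe sets, a sign of RNA integrity and amplification, ran from 0.34 to 0.38 in A2780, from 0.63 to 0.86 in CP70, from 0.34 to 0.79 with decitabine, from 0.38 to 0.51 with PXD101 and from 0.42 to 0.49 with both. The part of the stress genes and of RNA quality in the results was not tested.

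**Figure D2:**
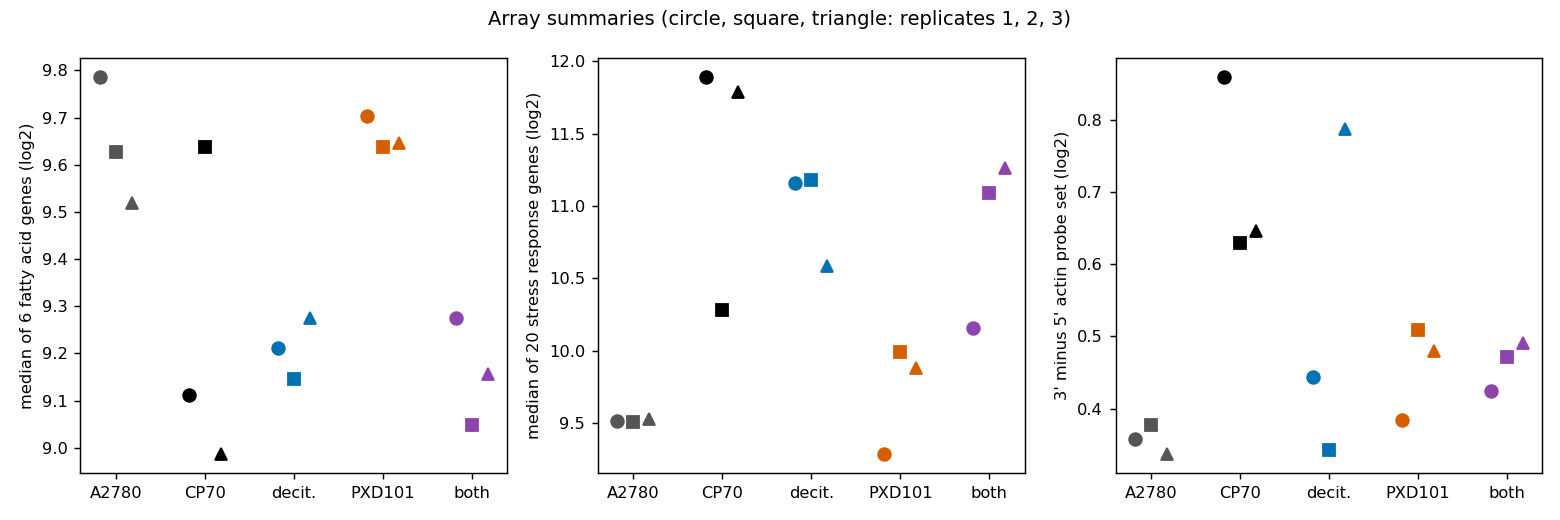
Summaries for each array, by group (horizontal axis): the median of the 6 fatty acid genes (left), the median of 20 integrated stress response genes (middle) and the 3′ minus 5′ actin difference (right), all in log2 units, with circle, square and triangle for replicates 1, 2 and 3. Untreated CP70 replicate 2 (square) sits at 9.64 on the left and 10.28 in the middle, and its group mates sit at 9.11 and 8.99, and at 11.89 and 11.78.

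**Figure D3:**
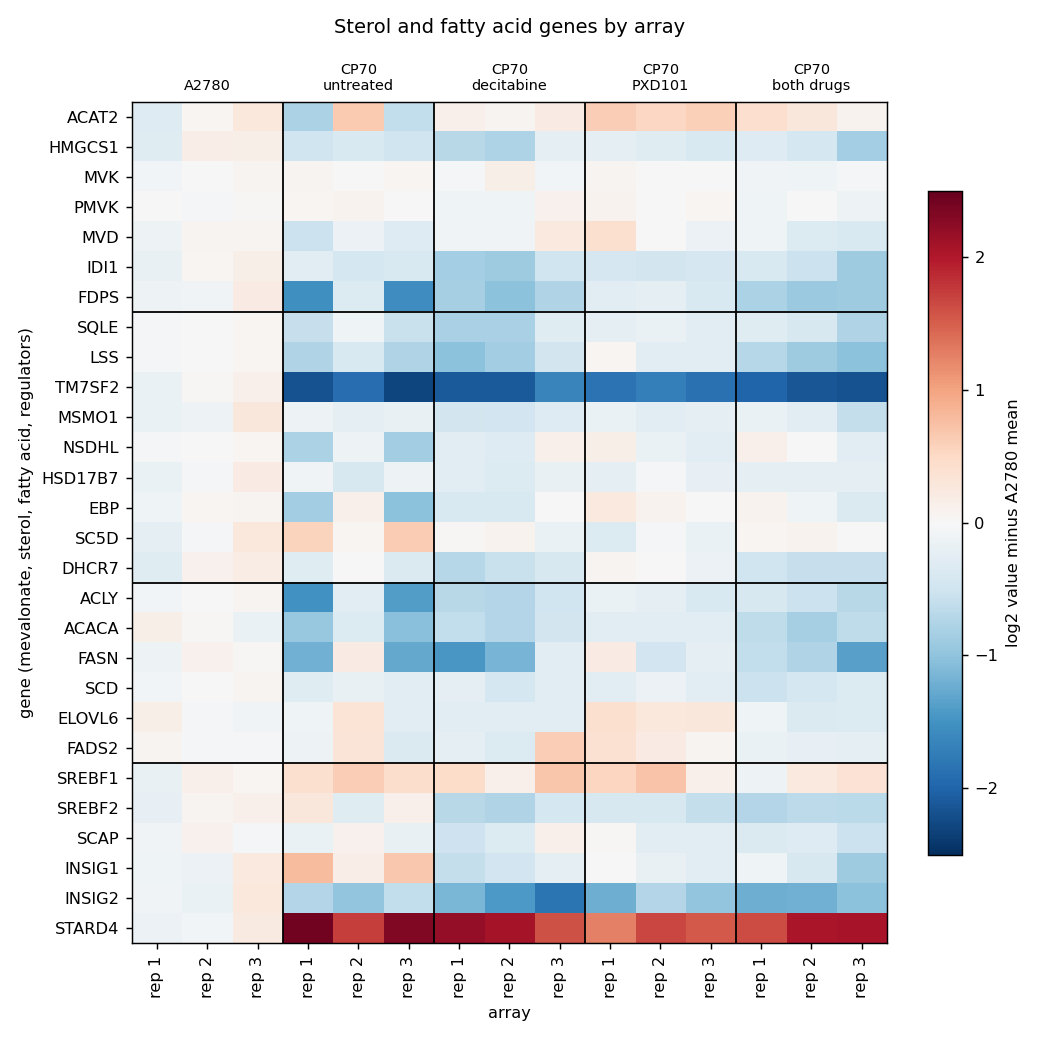
Log2 value of each gene on each of the 15 arrays minus the A2780 mean of that gene (colour), with genes in rows ordered by stage and arrays in columns ordered by group. TM7SF2 is lower and STARD4 is higher in all 12 CP70 arrays than in A2780, and FDPS, ACLY and FASN are lowest in CP70 replicates 1 and 3 or in arrays with decitabine.

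The comparison of untreated CP70 with A2780 asked how expression of this set differs with cisplatin resistance. Enzymes of every stage were among the genes lower in CP70, and 3 regulators or carriers were higher. In bulk RNA, fewer expressing cells and less RNA per cell cannot be told apart. By limma with Benjamini-Hochberg adjustment over all genes, 12 of 28 changed, 3 higher and 9 lower, or 42.9% of the set; of all genes, 31.2% were called, 16.1% higher and 15.2% lower. For 14 of the 28 the groups did not overlap, against 38.3% of all genes. The 9 lower calls were spread over the mevalonate stage (2 of 7), the sterol stage (3 of 9), fatty acid synthesis (3 of 6) and the regulators (1 of 6), and all 3 higher calls were among the 6 regulators and carriers. The median difference was -0.25 over the 28 genes and 0.01 over all genes.

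The largest fall was in TM7SF2, a sterol reductase of the later cholesterol pathway. TM7SF2 read 8.92, 9.13 and 9.23 in A2780 and 6.92, 7.19 and 6.80 in untreated CP70. It read 7.0, 7.0 and 7.44 with decitabine, 7.24, 7.38 and 7.23 with PXD101, and 7.10, 6.96 and 6.92 with both drugs. Every CP70 array, treated or not, lay far under every A2780 array. TM7SF2 was lower in CP70 by 4.35-fold (log2 change -2.12 ± 0.13 SE, limma adjusted p = 8.03e-09), and neither drug nor the combination changed it past the threshold, with changes from untreated CP70 of 0.02 to 0.31.

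STARD4, a carrier that moves cholesterol between membranes, differed most in the other direction. It read 9.85, 9.93 and 10.22 in A2780 and 12.42, 11.74 and 12.32 in untreated CP70. With decitabine it read 12.20, 12.07 and 11.59, with PXD101 11.25, 11.67 and 11.52, and with both 11.62, 12.04 and 12.07. All 12 CP70 arrays were over all A2780 arrays, and the PXD101 arrays were under the untreated CP70 arrays. STARD4 was 4.47-fold higher in CP70 than in A2780 (2.16 ± 0.20, limma adjusted p = 6.77e-07). TM7SF2 and STARD4 were also the only 2 of the 28 genes called by the rank product method named in the design text, which called 5.29% of all genes. Both calls held without any 1 array, without CP70 replicate 2 and without CP70 replicates 1 and 3.

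The early enzymes FDPS and ACLY were lower in CP70 on average, and the size of the difference rested on which CP70 arrays were used. FDPS, which makes the precursor of squalene, read 11.39, 11.44 and 11.74 in A2780 and 9.99, 11.18 and 9.98 in CP70 (-1.14 ± 0.23, limma adjusted p = 0.00143). ACLY read 11.61, 11.67 and 11.75 in A2780 and 10.16, 11.41 and 10.27 in CP70 (-1.06 ± 0.23, limma adjusted p = 0.00239). The groups did not overlap for either gene, and CP70 replicate 2 was close to A2780 in both. Without CP70 replicates 1 and 3 the differences were -0.35 for FDPS (limma adjusted p = 0.156) and -0.27 for ACLY (0.277). All 3 probe sets of ACLY were called lower. With CP70 replicate 2 as the only CP70 array, TM7SF2, STARD4 and INSIG2 kept their calls and 9 of the 12 were lost.

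Within fatty acid synthesis, ACACA (acetyl-CoA carboxylase, which makes malonyl-CoA) read 10.13, 10.01 and 9.82 in A2780 and 9.03, 9.64 and 8.93 in CP70, without overlap (-0.79 ± 0.15, limma adjusted p = 0.000976). With replicate 2 as the only CP70 array it was -0.35. A second ACACA probe set had a difference of the opposite sign (0.26, limma adjusted p = 0.269). FASN read 8.75, 8.99 and 8.90 in A2780. Its CP70 values, given above, overlapped A2780 through replicate 2, and the difference did not pass the test (-0.76 ± 0.36, 95% interval -1.53 to 0.00, limma adjusted p = 0.131). Read by a second, dimmer probe set (mean 5.37), FASN differed by -0.01 (limma adjusted p = 0.973). Without CP70 replicate 2 the FASN difference was -1.24 (limma adjusted p = 0.00236), and without replicates 1 and 3 it was 0.20 (0.826). SCD, the stearoyl-CoA desaturase, read 11.61, 11.68 and 11.75 in A2780 and 11.38, 11.50 and 11.42 in CP70, a small difference without overlap (-0.25 ± 0.09, limma adjusted p = 0.0475). The SCD call was lost in 10 of 15 other settings, among them those without any 1 A2780 array. The other 3 probe sets of SCD had differences of 0.08, 0.29 and 0.21, of the opposite sign, and ELOVL6, an elongase of long fatty acids, had -0.01 and -0.02 by 2 probe sets and -1.54 (limma adjusted p = 0.000633) by the third.

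In the sterol stage, LSS (lanosterol synthase, which closes the sterol rings) read 8.82, 8.87 and 8.93 in A2780 and 8.12, 8.50 and 8.13 in CP70 (-0.62 ± 0.15, limma adjusted p = 0.00468). NSDHL, which acts in removing methyl groups from sterol intermediates, read 8.44, 8.49 and 8.54 in A2780 and 7.70, 8.37 and 7.63 in CP70 (-0.59 ± 0.19, limma adjusted p = 0.0233). Neither gene had overlapping groups. The other probe sets of LSS had differences of 0.11 and -0.27, that of NSDHL had -0.38, and none of these was called. With replicate 2 as the only CP70 array the differences were -0.37 for LSS (limma adjusted p = 0.261) and -0.12 for NSDHL (0.806), and the NSDHL call was lost in 6 of 15 other settings. In the mevalonate stage HMGCS1, which makes HMG-CoA, read 8.66, 9.12 and 9.11 in A2780 and 8.47, 8.57 and 8.47 in CP70, again without overlap (-0.46 ± 0.16, limma adjusted p = 0.0443). The HMGCS1 call was lost in 7 of 15 other settings, including each fit that left out replicate 2 or 3 of A2780. A second HMGCS1 probe set had a difference of -0.57 (limma adjusted p = 0.0809) and was not called. The other 11 uncalled enzymes of the mevalonate and sterol stages (MVK, PMVK, MVD, IDI1, ACAT2, SQLE, MSMO1, HSD17B7, EBP, SC5D and DHCR7) had differences between -0.59 and 0.41. For ACAT2 the direction turned with the array used: 9.63 in A2780, 8.93 in CP70 replicates 1 and 3, and 10.28 in replicate 2. Without replicate 2 ACAT2 was called lower. Other probe sets were called lower for EBP (-1.06, limma adjusted p = 0.00334) and SQLE (-0.49 and -0.42, limma adjusted p = 0.00677 and 0.0383), and their remaining ones were not.

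Among the regulators, INSIG2 was lower and SREBF1 and INSIG1 were higher in CP70. INSIG2 read 8.38, 8.29 and 8.72 in A2780 and 7.74, 7.47 and 7.84 in CP70, without overlap (-0.78 ± 0.17, limma adjusted p = 0.00266). SREBF1 read 8.12, 8.42 and 8.35 in A2780 and 8.69, 8.90 and 8.73 in CP70, also without overlap (0.48 ± 0.17, limma adjusted p = 0.0464). The SREBF1 call was lost when any 1 array of A2780 or CP70 was left out, and in 9 of 15 other settings in all. A second SREBF1 probe set had a difference of 0.11 (limma adjusted p = 0.534). INSIG1 read 9.48, 9.44 and 9.84 in A2780 and 10.39, 9.75 and 10.25 in CP70, with replicate 2 inside the range of A2780 (0.54 ± 0.20, limma adjusted p = 0.0475). With replicate 2 as the only CP70 array the INSIG1 difference was 0.16, and the call was lost in 10 of 15 other settings. The other probe sets of INSIG1 had differences of 0.57 and 0.59 and were called (limma adjusted p = 0.0143 and 0.041). SREBF2 read 7.92, 8.19 and 8.25 in A2780 and 8.40, 7.82 and 8.24 in CP70, fully overlapping, with a difference of 0.03 (95% interval -0.27 to 0.33). Without CP70 replicate 2, 17 of the 28 genes were called between the lines, and without replicates 1 and 3, 4 were called.

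All 12 CP70 arrays were below all 3 A2780 arrays for 8 of the 28 genes (28.6%), INSIG2, SQLE, IDI1, FDPS, TM7SF2, SCD, ACACA and ACLY, against 9.7% of all genes. All 12 were above for 1 gene, STARD4 (3.57%), against 10.9% of all genes. These splits share the A2780 arrays and add no test to those above.

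**Figure D4:**
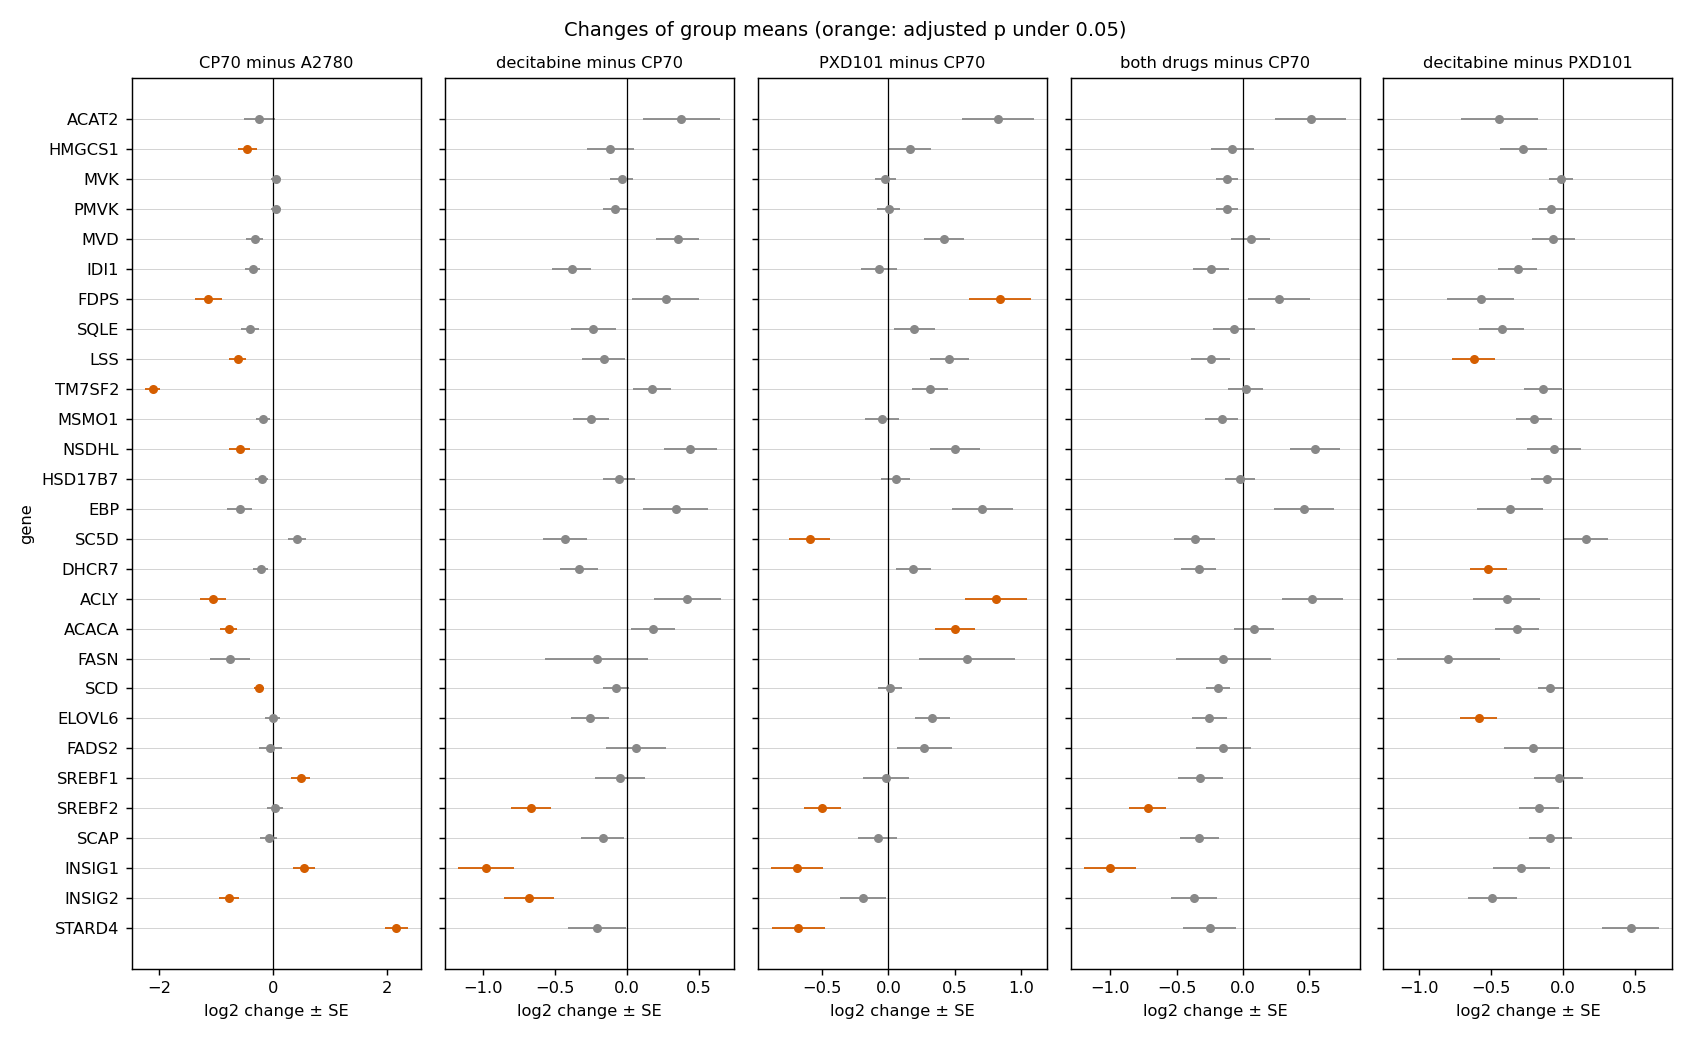
Difference between group means in log2 units (horizontal axes, error bars are the limma SE) for each of the 28 genes (vertical axis) in 5 comparisons, with orange marking a limma adjusted p under 0.05. Calls between the lines lie on both sides of 0, the calls after decitabine and after both drugs are INSIG1, SREBF2 and, after decitabine, INSIG2, and in the right panel LSS, DHCR7 and ELOVL6 are lower after decitabine than after PXD101.

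The comparison of decitabine-treated with untreated CP70 asked which genes change after the methyltransferase inhibitor. Regulators of the pathway fell and no enzyme was called. By limma, 3 of 28 genes fell (10.7%) and none rose, against 3.14% of all genes lower, 4.87% higher and 8.01% called in either direction. Groups without overlap were seen for 7 of the 28, against 19.9% of all genes. All 3 were among the 6 regulators and carriers, and all 6 of these had negative changes, whereas 9 of the 28 genes in all had positive ones. The median change was -0.10 over the 28 genes and 0.02 over all genes.

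INSIG1, which retains SCAP in the endoplasmic reticulum, read 8.98, 9.11 and 9.36 with decitabine, below all 3 untreated CP70 arrays (10.39, 9.75 and 10.25). It fell by 0.98 ± 0.20 on the log2 scale, 1.97-fold (limma adjusted p = 0.00635), and was the 1 gene of the 28 also called by rank product, which called 1.89% of all genes. The other probe sets of INSIG1 had changes of -0.51 and -1.05. SREBF2, the activator of the sterol genes, read 7.42, 7.37 and 7.68 with decitabine, below all 3 untreated arrays (8.40, 7.82 and 8.24), and fell by 0.66 ± 0.14 (limma adjusted p = 0.00832). Of its other probe sets 1 moved alike (-0.64) and 1 had a change of -0.10. INSIG2 read 7.33, 7.04 and 6.65, below the untreated 7.74, 7.47 and 7.84, and fell by 0.68 ± 0.17 (limma adjusted p = 0.0259).

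These calls varied with the arrays used. With CP70 replicate 2 as the only untreated array, the changes were -0.60 for INSIG1 (limma adjusted p = 0.237), -0.33 for SREBF2 (0.319) and -0.47 for INSIG2 (0.365), so none of the 3 was called. The INSIG2 call was also lost without CP70 replicate 1 or 3 and without decitabine replicate 2 or 3. Without replicate 2, INSIG1, SREBF2, INSIG2 and SC5D were called lower. In that fit 7 enzymes were called higher, FDPS, NSDHL, EBP, MVD, ACAT2, ACACA and ACLY, with changes of 0.40 to 0.83, and 11 of 28 genes were called in all. Of these enzymes, FDPS, EBP, ACAT2, ACACA and ACLY after decitabine lay over CP70 replicates 1 and 3 and under replicate 2. FDPS read 10.69, 10.50 and 10.78, and ACLY read 10.98, 10.95 and 11.18. NSDHL had an array over replicate 2, and MVD lay over all untreated CP70 arrays.

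FASN read 7.42, 7.72 and 8.59 with decitabine, SREBF1 8.76, 8.43 and 8.99, HMGCS1 8.26, 8.19 and 8.72, and SCD 11.45, 11.24 and 11.39. All 4 overlapped untreated CP70. Their changes were -0.21 (95% interval -0.97 to 0.56), -0.05 (-0.42 to 0.32), -0.11 (-0.46 to 0.23) and -0.07 (-0.26 to 0.12). Changes within these intervals remain compatible with the values. Decitabine replicate 3 lay over both of its group mates for 22 of the 28 genes, and its difference from them was the largest for FASN (1.02). This array differed from their mean by more than 0.5 for 6 of the 28 (21.4%), against 7.8% of all genes.

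**Figure D5:**
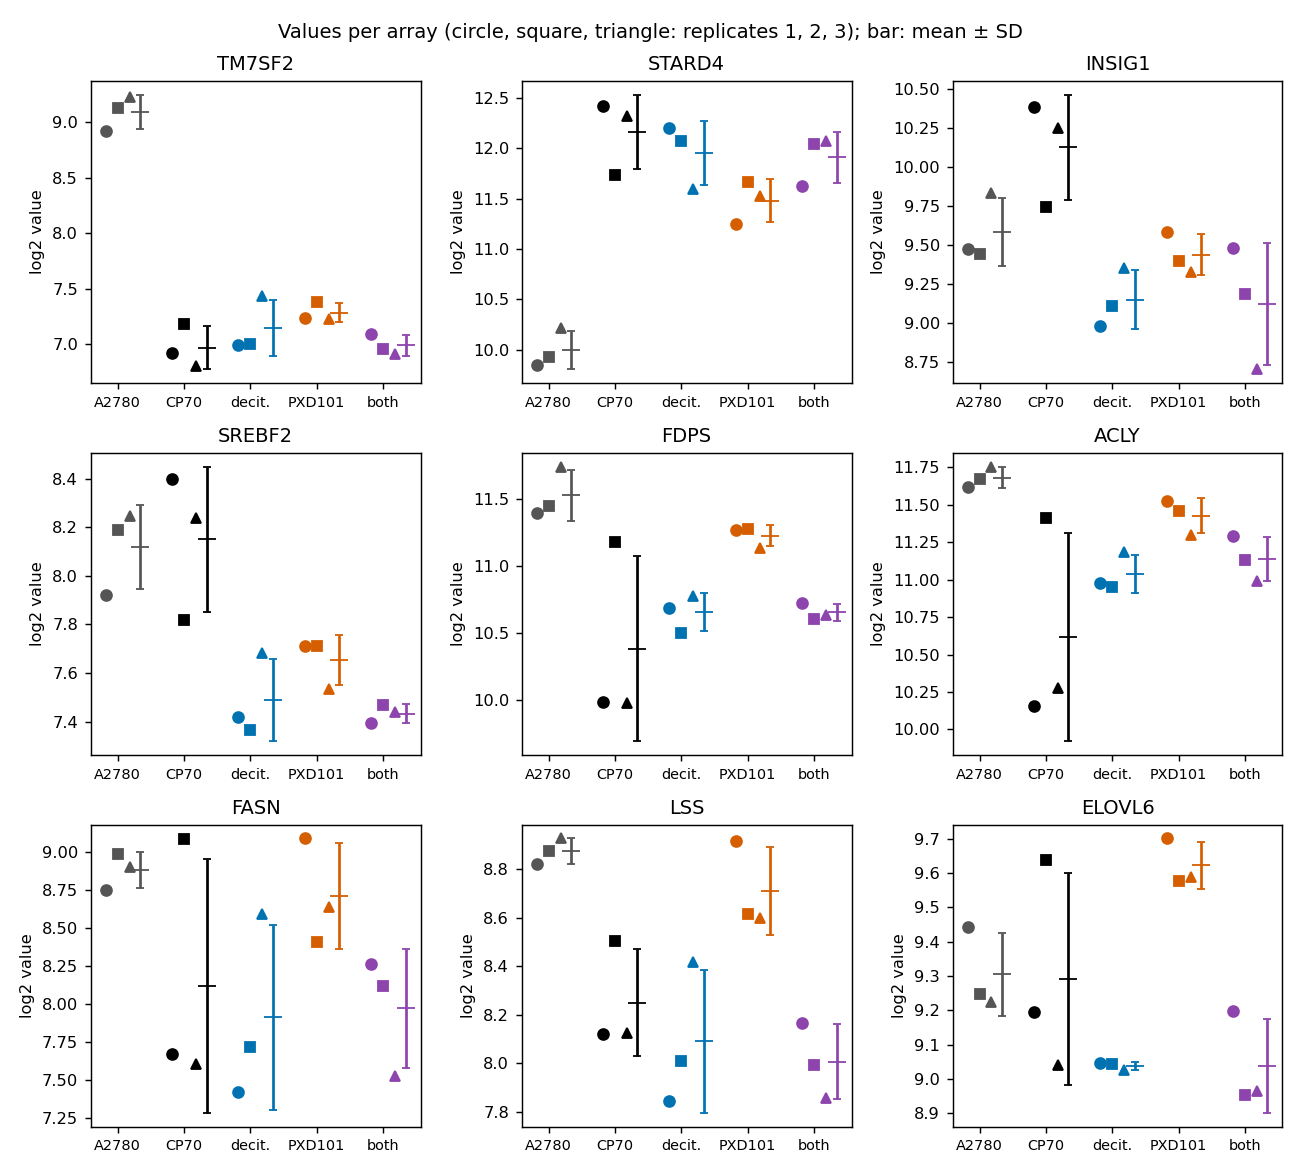
Log2 value on each array for 9 of the 28 genes (one panel each) in the 5 groups, with circle, square and triangle for replicates 1, 2 and 3 and a bar for the group mean ± SD. The panels for INSIG1 and SREBF2 show all 6 arrays with decitabine under the untreated CP70 arrays, and those for FDPS, ACLY and FASN show untreated CP70 replicate 2 (square) far over replicates 1 and 3.

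The comparison of PXD101-treated with untreated CP70 asked which genes change after the deacetylase inhibitor. By limma, 7 of 28 genes were called (25%), 3 higher and 4 lower, against 10.7% of all genes, 5.57% higher and 5.15% lower. The higher genes were FDPS, ACLY and ACACA, all enzymes, and the lower were SC5D, SREBF2, INSIG1 and STARD4. With CP70 replicate 1 or 3 left out, none of the 28 was called (9 and 11 at an unadjusted p under 0.05). With any PXD101 array left out none was called either (11 to 14 at an unadjusted p under 0.05). Rank product called none of the 28 and 1.82% of all genes. The groups did not overlap for 8 of the 28, against 22.2% of all genes. Without CP70 replicate 2, 15 were called, 11 higher and 4 lower, and with replicate 2 as the only untreated array none was called, nor did any of the 28 have an unadjusted p under 0.05.

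FDPS read 11.27, 11.28 and 11.14 with PXD101, over CP70 replicates 1 and 3 and at the level of replicate 2 (11.18), a change of 0.84 ± 0.23 (limma adjusted p = 0.0368). ACLY read 11.52, 11.46 and 11.30, overlapping the untreated group through replicate 2 (0.81 ± 0.23, limma adjusted p = 0.0408), and all 3 of its probe sets were called. ACACA read 9.71, 9.70 and 9.70, just over all 3 untreated arrays (0.50 ± 0.15, limma adjusted p = 0.0485). A second ACACA probe set went the other way, with -0.56 (limma adjusted p = 0.0472). FASN read 9.09, 8.41 and 8.64 and overlapped the untreated arrays (0.59, 95% interval -0.17 to 1.36). By its second probe set the FASN change was -0.13 (limma adjusted p = 0.489).

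The lower genes did not overlap untreated CP70. SC5D, a desaturase late in sterol synthesis, read 10.29, 9.79 and 10.38 in untreated CP70 and 9.39, 9.71 and 9.58 with PXD101 (-0.59 ± 0.15, limma adjusted p = 0.0316). SREBF2 read 7.71, 7.71 and 7.53 (-0.50 ± 0.14, limma adjusted p = 0.0379) and INSIG1 9.58, 9.40 and 9.33 (-0.69 ± 0.20, limma adjusted p = 0.0403). Other probe sets of SREBF2 had changes of -0.58 and 0.19 (limma adjusted p = 0.0542 and 0.4). Those of INSIG1 had -0.23 and -0.58 (0.418 and 0.0871), that of SC5D had -0.21 (0.57), and none was called. STARD4, with the values given above, changed by -0.68 ± 0.20 (limma adjusted p = 0.0443). SREBF1 (8.83, 9.01 and 8.43), HMGCS1 (8.74, 8.66 and 8.59) and SCD (11.41, 11.54 and 11.39) had changes of -0.02, 0.16 and 0.01 and were not called. INSIG2 read 7.25, 7.74 and 7.49 and overlapped the untreated group (-0.19, 95% interval -0.56 to 0.18).

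After both drugs 2 regulators were called lower, INSIG1 and SREBF2, 7.14% of the set against 4.22% of all genes lower, 6.17% higher and 10.4% called in either direction. The groups did not overlap for 8 of the 28, against 23.6% of all genes. INSIG1 read 9.48, 9.18 and 8.70, below all untreated CP70 arrays, and fell by 1.00 ± 0.20, 2.01-fold (limma adjusted p = 0.00412, called by rank product too, with 2.25% of all genes). SREBF2 read 7.39, 7.47 and 7.44, also below all of them, and fell by 0.72 ± 0.14 (limma adjusted p = 0.00392). With CP70 replicate 2 as the only untreated array the changes were -0.62 (limma adjusted p = 0.204) and -0.38 (0.219). Without replicate 2, 8 genes were called: SREBF2, INSIG1 and SC5D lower, and FDPS, NSDHL, EBP, ACAT2 and ACLY higher. Other probe sets of INSIG1 changed by -0.47 and -0.86 after both drugs (limma adjusted p = 0.089 and 0.0156). Those of SREBF2 changed by -0.72 and -0.17 (limma adjusted p = 0.0173 and 0.5). The 3 drug comparisons share the untreated CP70 arrays, so their values are given side by side and not as independent evidence.

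The other genes after both drugs were not called. INSIG2 read 7.24, 7.27 and 7.44, below all untreated arrays (-0.37, 95% interval -0.74 to 0.00), and SREBF1 read 8.17, 8.55 and 8.65, also below them (-0.32, 95% interval -0.69 to 0.05). SCD read 11.15, 11.24 and 11.35, below them as well (-0.19, 95% interval -0.38 to 0.00). HMGCS1 (8.65, 8.51 and 8.11) and FASN (8.26, 8.12 and 7.53) overlapped untreated CP70, with changes of -0.08 and -0.15.

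The combination differed little from decitabine alone. None of the 28 genes was called by limma, none had an unadjusted p under 0.05 and none was called by rank product, and of all genes 0.0101% were called by limma and 0.091% by rank product. Non-overlapping groups were seen for 1 of the 28, against 10.6% of all genes. The changes ran from -0.29 to 0.31. The intervals were widest for FASN, from -0.71 to 0.82, and for SREBF2 and INSIG1 they ran from -0.35 to 0.24 and from -0.45 to 0.39. Differences within these intervals remain compatible with the values.

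In comparisons among the treated arms the untreated arrays do not enter the means, but they do enter the spread that limma estimates over all 15 arrays. With only the groups compared, 5 genes were called for decitabine and 6 for both drugs against PXD101, in place of 3 and 3. The genes called lower in arrays with decitabine than in those with PXD101 alone were 3 enzymes, from both pathways. After decitabine, 3 of 28 genes were lower than after PXD101 (10.7%, against 3.26% of all genes lower, 4.9% higher and 8.15% called in either direction), namely ELOVL6, LSS and DHCR7. After both drugs the same 3 were lower than after PXD101 (10.7%, against 4.03% of all genes lower, 5.91% higher and 9.94% called in either direction). No gene of the set was called higher in either comparison. The share of the set called in either direction was thus near that of all genes in both. The groups did not overlap for 11 of the 28 with decitabine, against 28.8% of all genes, and for 16 with both drugs, against 33.3%. The 2 comparisons share the PXD101 arrays, and PXD101 exposure was 48 h alone and 24 h in the combination. Of the 28 genes, 26 were lower on average after decitabine than after PXD101 and 25 were lower after both drugs, with median differences of -0.24 and -0.26, where those of all genes were 0.01 and -0.01.

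LSS read 7.84, 8.01 and 8.42 with decitabine, 8.17, 7.99 and 7.86 with both drugs and 8.92, 8.61 and 8.60 with PXD101. All 6 arrays with decitabine were below all 3 with PXD101 alone. The difference was -0.62 ± 0.15 for decitabine (limma adjusted p = 0.0188) and -0.70 ± 0.15 for both drugs (limma adjusted p = 0.00734). A second LSS probe set was called too (-0.71 and -0.73), and the third had differences of -0.07 and -0.01. ELOVL6 read 9.05, 9.04 and 9.03 with decitabine, 9.20, 8.95 and 8.96 with both and 9.70, 9.58 and 9.59 with PXD101, again without overlap. It was lower by -0.58 ± 0.13 in each comparison (limma adjusted p = 0.0115 for decitabine and 0.00961 for both), and its other probe sets had differences of -0.66 and -0.95 for decitabine.

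DHCR7, a reductase at the end of cholesterol synthesis, read 8.52, 8.67 and 8.83 with decitabine, 8.72, 8.65 and 8.65 with both drugs and 9.29, 9.21 and 9.08 with PXD101. These groups did not overlap either (-0.52 ± 0.13 in each comparison, limma adjusted p = 0.0236 and 0.0198). Each DHCR7 call was lost in 4 of 14 other settings, all of which left out 1 array, with adjusted p up to 0.0944 and 0.081. A second DHCR7 probe set had differences of -0.35 (limma adjusted p = 0.149) and -0.43 (0.0657) and was not called. Untreated CP70 read 8.93, 9.22 and 8.87 for DHCR7, 8.12, 8.50 and 8.13 for LSS and 9.20, 9.64 and 9.04 for ELOVL6, with replicate 2 the highest each time. In all, 8 of the 28 genes (28.6%) were lower in all 6 arrays with decitabine than in all 3 with PXD101 alone, SQLE, FDPS, LSS, DHCR7, ACAT2, ACACA, ACLY and ELOVL6, against 9.98% of all genes, and none was higher in all 6, against 10.5%. Rank product called FASN lower in both comparisons and LSS lower after both drugs, and it called 3.7% of all genes after decitabine and 4.12% after both drugs. The second FASN probe set had differences of 0.08 and 0.14, of the opposite sign (limma adjusted p = 0.705 and 0.458).

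The test of whether the drugs' effects add asked if the change with both drugs differs from the sum of the single changes. PXD101 exposure was 48 h alone and 24 h in the combination. Non-additive action and the shorter exposure therefore cannot be told apart here. By limma the test called none of the 28 genes (0.0152% of all genes were called), and 10 had an unadjusted p under 0.05, as did 3576 of all 19775 genes. The lowest and highest departures were -0.84 ± 0.33 for FDPS (limma adjusted p = 0.220) and 0.66 ± 0.28 for INSIG1 (limma adjusted p = 0.239). Without CP70 replicate 2, 14 genes were called, 4 above and 10 below the sum, and with replicate 2 as the only untreated array none was called and 1 had an unadjusted p under 0.05.

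Around the pathway, 40 of 50 listed genes of sterol transport, oxysterol signalling and lipid use were represented. Between the lines 14 of the 40 were higher and 9 lower in CP70 (57.5%, against 31.2% of all genes). Those with the smallest p were CPT1A, which admits fatty acids to mitochondria (1.66 ± 0.11, limma adjusted p = 9.61e-09), the acyl-CoA synthetase ACSL1 (1.00 ± 0.11), the nuclear receptor PPARG (1.01 ± 0.12) and MID1IP1, an activator of acetyl-CoA carboxylase (1.34 ± 0.19), all higher in CP70, and all 4 were called without CP70 replicate 2 and with it as the only CP70 array. Larger differences than some of these were seen for ME1 (1.51), NPC1 (1.30), the desaturase SCD5 (-1.59) and TMEM97, a partner of NPC1 (-1.32). With CP70 replicate 2 as the only CP70 array they were smaller, at 0.63, 0.47, -0.82 and -0.65, and NPC1 and TMEM97 lost their calls. Fewer of the 40 genes were called between the lines in that fit. Without CP70 replicate 2, 13 were higher and 9 lower. After decitabine 2 rose and 3 fell (12.5%, against 8.01%), after PXD101 4 rose and 4 fell (20%, against 10.7%), and after both drugs 4 rose and 2 fell (15%, against 10.4%). These drug counts moved with the untreated arrays. Without CP70 replicate 2, 8 rose and 7 fell after decitabine, 9 rose and 9 fell after PXD101, and 7 rose and 6 fell after both drugs. With it as the only untreated array, 1 rose and 2 fell after decitabine, 1 rose and 4 fell after both drugs, and none was called by limma after PXD101 (2 at an unadjusted p under 0.05).

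CH25H, the hydroxylase that makes an oxysterol able to hold back SREBP processing, rose the most with decitabine. It read 5.37, 5.00 and 5.31 in untreated CP70, 7.39, 8.12 and 7.41 with decitabine, 4.63, 5.00 and 4.61 with PXD101 and 7.32, 8.19 and 7.84 with both drugs. The 6 arrays with decitabine were over all others, and A2780 read 5.11, 4.89 and 4.57. CH25H rose 5.34-fold with decitabine (2.42 ± 0.23, limma adjusted p = 8.43e-06) and by 2.56 ± 0.23 with both drugs. NR1H3, the oxysterol-sensing liver X receptor alpha, read 6.33, 6.41 and 6.42 in untreated CP70, 6.03, 5.89 and 5.78 with decitabine and 5.70, 5.43 and 5.83 with both, without overlap, and fell by 0.49 ± 0.12 and 0.73 ± 0.12.

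CPT1A fell by 0.69 ± 0.11 after decitabine and by 0.77 ± 0.11 after both drugs, and MYLIP, a ligase that marks lipoprotein receptors for degradation, rose by 0.46 ± 0.12 after decitabine. With CP70 replicate 2 as the only untreated array the decitabine changes of CPT1A (-0.42), MYLIP (0.38) and NR1H3 (-0.51) were not called, and CH25H was called after both decitabine and the combination. The genes of the list with the smallest p after PXD101 were ME1, a source of NADPH (-1.21 ± 0.25), MID1IP1 (-0.87 ± 0.19), NPC1, which exports cholesterol from lysosomes (-1.06 ± 0.25), and LPIN1, a phosphatidate phosphatase (0.57 ± 0.14). NPC1 read 10.63, 9.32 and 10.51 in untreated CP70 and 8.97, 9.20 and 9.10 with PXD101. ME1 read 10.67, 9.33 and 10.65 untreated and 8.97, 9.04 and 8.99 with PXD101, and MID1IP1 read 9.33, 8.63 and 9.48 and then 8.09, 8.53 and 8.20. In each of the 3 genes CP70 replicate 2 was the untreated array nearest to the PXD101 arrays. LPIN1 rose by 0.81 ± 0.14 with both drugs. Against PXD101 alone, 1 of the 40 was higher and 2 were lower with decitabine (7.5%, against 8.15% of all genes called). With both drugs 3 were higher and 3 lower (15%, against 9.94%). The lower genes included NR1H3 (-0.78 ± 0.12 and -1.02 ± 0.12) and the desaturase SCD5 (-1.07 ± 0.24 and -1.23 ± 0.24), and CH25H was higher in both comparisons (2.89 ± 0.23 and 3.04 ± 0.23). ABCA1, which exports cholesterol, was higher by 1.00 ± 0.21 with both drugs.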

How the data were processed

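RNA of 5 groups of 3 cultures was extracted with RNeasy columns, amplified with a NuGEN Ovation kit and hybridised to Affymetrix arrays, per the labels' protocols. The authors deposited 1 log2 value for each of 54675 probe sets and array. The submitters' processing notes name R 2.10.1 and affy. The method of background correction and normalization is not given in any source at hand. That values are log2 was inferred from their range. With the normalization unknown, an unstated step may have narrowed differences between arrays. Symbols came from the platform annotation: 41097 probe sets had 1 symbol, 1801 several and 11777 none, and 62 control probe sets stayed out of the fit. Where a gene had several probe sets, the one brightest on average was used (19775 genes), with no filter on low values.

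Changes are differences of group means from limma 3.58.1 in R 4.3.3 (lmFit and eBayes on all 15 arrays, group means only), with Benjamini-Hochberg adjustment over all 19775 genes and a call at an adjusted p under 0.05, and errors in the text are the SE of that fit. All tests are two-sided. The rank product method named in the design text was run as an alternative, with 100 permutations and a call at under 5% false positives. Both were tested on simulated data. Other tables were made with Python 3.11.15. Pathway lists and the 28 genes were chosen with earlier results of these data known. Array values are printed for genes called against untreated CP70 or A2780 (the largest changes first, up to 8 per comparison) and for INSIG1, HMGCS1, SREBF1, SREBF2, FASN and SCD; of the other pathway genes up to 4 per comparison with the smallest p are named. Values of DHCR7, ELOVL6, ACAT2, EBP, CH25H, NR1H3, NPC1, ME1 and MID1IP1 on single arrays, and the naming of ME1, NPC1, SCD5 and TMEM97 between the lines and of single markers, were chosen after they were seen. Beyond the stated triplicates nothing ties arrays to separate experiments, so p-values measure the spread between these samples. Arrays were not paired by replicate number in the main fit. Promoters are from RefSeq.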

Additional observations from a re-analysis of the deposited data

How the results depend on the processing

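Between CP70 and A2780, 12 genes were called in the main setting, 7 with only the groups compared, 21 with array weights, 4 without CP70 replicates 1 and 3 and 2 by rank product. For decitabine against CP70, the main count of 3 became 1 with only the groups compared, 5 with probe sets averaged per gene, 12 with array weights, 6 with median centring, 1 without CP70 replicates 1 and 3 and 1 by rank product. For PXD101 against CP70, 7 became 0 with only the groups compared (12 at an unadjusted p under 0.05 by limma), 1 with a replicate block, 2 with probe sets averaged per gene, 18 with array weights, 0 without CP70 replicates 1 and 3 (0 at an unadjusted p under 0.05), and 0 by the rank product method. For both drugs against CP70, 2 became 0 with only the groups compared (6 at an unadjusted p under 0.05), 11 with array weights, 4 with median centring, 1 without CP70 replicates 1 and 3 and 1 by rank product. For both drugs against PXD101, 3 became 6 with only the groups compared and 8 with array weights. For decitabine against PXD101, 3 became 5 with only the groups compared, 12 with array weights and 1 by rank product. The non-additive count of 0 became 14 with array weights. The cause was not tested, and no share of all genes is given for these other limma settings. Leaving out 1 array at a time gave 7 to 17 between the lines, 2 to 11 for decitabine, 0 to 15 for PXD101, 2 to 8 for both drugs, 0 for both drugs against decitabine, 1 to 3 and 1 to 4 against PXD101, and 0 to 14 for the non-additive test.

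With probe sets averaged per gene, 2 called genes changed sign: SCD between the lines (0.0855) and ACACA after PXD101 (-0.0273). Over the called genes, 203 of the values under other settings kept direction and call, 59 lost the call and 2 reversed; leaving out single arrays, 106 kept it and 74 lost it. TM7SF2, STARD4 and INSIG2 between the lines, LSS after both drugs against PXD101 and ELOVL6 after decitabine against PXD101 kept the call in every limma setting run. Of 30 same-numbered pairs of arrays 7 correlated over 0.1, from -0.38 to 0.49. Arrays with different numbers were not compared, so whether replicate numbers pair the arrays was not tested. With the replicate block the counts were 8 between the lines, 3 for decitabine, 1 for PXD101, 2 for both drugs, 3 and 3 against PXD101, and 0 for both drugs against decitabine and for the non-additive test.

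Arrays limit what can be seen: 3 per group, a wide spread in untreated CP70 and several probe sets per gene that differ.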
